A study of Homo sapiens with 12 samples.

Results

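The genes described here encode 2 chaperonins, the barrel-shaped protein complexes in which newly made or damaged proteins fold. They were taken from the deposited table by gene symbol, and all 10 were found among its 27514 genes. No measured value entered that rule, but the set was chosen with earlier results of these data known. TCP1, CCT2, CCT3, CCT4, CCT5, CCT6A, CCT7 and CCT8 encode the 8 subunits of the cytosolic chaperonin CCT (also called TRiC). HSPD1 and HSPE1 encode the mitochondrial chaperonin HSP60 and its co-chaperonin HSP10.

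RNA sequencing was done on IMR32, a human neuroblastoma cell line in which the gene of the transcription factor MYCN is amplified. The cells received siRNA by Nucleofector electroporation and were cultured in serum-containing growth medium for 72 h. There are 4 groups with 3 samples in each: control siRNA (siCtrl, labelled siCTR), siRNA to MYCN (siMYCN, labelled siMYCN_2), siRNA to HAND2, another transcription factor gene (siHAND2, labelled siHAND2_3), and the pair of them together (siMYCN+siHAND2, labelled siM2+siH2_3 and called the combined knockdown below). The series asks which genes MYCN and HAND2 regulate in these cells. All groups are 1 cell line, and the labels name a single siRNA for each target, so an effect of the target and an effect of that siRNA on other transcripts cannot be told apart. The labels do not say whether the 3 samples of a group were separate cultures, so the p-values below measure the spread between these samples, which may be technical.

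CCT stacks its 8 subunits, each present in every ring, into a double ring that closes over its substrate, and it is known above all for folding actin and tubulin. HSP60 works inside the mitochondrial matrix, where HSP10 forms the lid of the folding chamber. A cell needs all CCT subunits together, and both HSP60 and HSP10, to build working complexes, so the balance between members is of interest beside their levels.

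HSPD1 and HSPE1 lie head to head on chromosome 2, at chr2:198351308-198364999 on the minus strand and chr2:198364721-198368188 on the plus strand in the hg19 coordinates of the table. Their start regions are shown because this pair changed most of all members, and because the sequences carry letters known from MYC-type and heat shock factors. The windows come from RefSeq on GRCh38.p14 and run from 250 bases before to 50 bases after the annotated start, 5′ to 3′ on the strand of the gene. Capitals mark CACGTG (the E-box letters bound by MYC-type factors) in the first, and in the second a run of overlapping matches to TTCNNGAA and GAANNTTC (the letters of heat shock elements).
HSPE1, chr2:197500129-197500428, plus strand: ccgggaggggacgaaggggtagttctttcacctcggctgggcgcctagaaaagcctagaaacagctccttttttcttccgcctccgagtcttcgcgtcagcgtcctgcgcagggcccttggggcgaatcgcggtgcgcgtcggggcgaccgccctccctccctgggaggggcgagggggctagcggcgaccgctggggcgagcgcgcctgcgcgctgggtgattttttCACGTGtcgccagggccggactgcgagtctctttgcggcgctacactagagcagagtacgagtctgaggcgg
HSPD1, chr2:197499791-197500090, minus strand: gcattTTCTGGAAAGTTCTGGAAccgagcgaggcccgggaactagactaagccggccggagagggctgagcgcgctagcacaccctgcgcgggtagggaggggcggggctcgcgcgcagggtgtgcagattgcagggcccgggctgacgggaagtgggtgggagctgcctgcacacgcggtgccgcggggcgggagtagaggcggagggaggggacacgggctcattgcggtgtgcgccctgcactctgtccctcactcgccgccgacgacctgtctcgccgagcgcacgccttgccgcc

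The CACGTG of HSPE1 begins at position -22, counted from the annotated start. RefSeq gives HSPD1 a further, upstream start, whose window at chr2:197500225-197500524 shares 204 bases with that of HSPE1 and therefore holds the same CACGTG, at -88 on the HSPD1 strand. The promoter table has windows for 9 of the members. Among these windows, CACGTG was found only for HSPE1 and HSPD1. It was present in 7.26% of all 35116 windows of this length. The less specific CANNTG, which includes CACGTG, was present for 5 of the 9 members and in 68.7% of all windows. In the HSPD1 window shown, TTCNNGAA began at -245 and -235 and GAANNTTC at -240. TTCNNGAA was found for 2 of the 9 members and in 7.74% of all windows, and GAANNTTC for 3 of the 9 and in 6.77%. CCAAT, the letters read by the NF-Y factor, was found for 4 of the 9 members, none of them HSPD1 or HSPE1, and in 34.6% of all windows. A member was counted if any of its windows held the match, whereas the background counts windows. By window, CACGTG was in 2 of the 12 member windows, CANNTG in 6, TTCNNGAA in 2, GAANNTTC in 3 and CCAAT in 4. All motifs were searched on both strands. These matches describe letters and no binding was measured. CCT6A was not in the promoter table. The only CCT5 window holds the first coding bases of CCT5 ahead of its annotated start, so it belongs to an internal start. The region upstream of that coding sequence was therefore largely not searched for CCT5.

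Both siRNAs lowered their targets. MYCN stood at 1009 ± 42.6 CPM (read counts scaled to library size; SD, n = 3) in siCtrl, 682 ± 22.8 after siMYCN, 849 ± 48.7 after siHAND2 and 482 ± 64.3 in the combined knockdown. HAND2 stood at 239 ± 15.3 CPM in siCtrl, 326 ± 7.50 after siMYCN, 62.3 ± 7.06 after siHAND2 and 73.5 ± 11.1 in the combined knockdown. MYCN RNA was therefore still at 67.5% of siCtrl after siMYCN, whereas HAND2 RNA was at 26.0% after siHAND2. In the combined knockdown MYCN was at 47.7% and HAND2 at 30.7% of siCtrl. On CPM rescaled as described in the next paragraph these were 61.0% and 39.2%. CHGA, which encodes the secretory granule protein chromogranin A, was present at 93.7 to 184 CPM, and 7 of 8 neuroblastoma markers had a mean of at least 1 CPM. TH, the enzyme that starts catecholamine synthesis, was low, at 0.0686 to 2.06 CPM. The 8 markers summed to 329.9 to 344.7 CPM in siCtrl, 498 to 539 after siMYCN, 381 to 416 after siHAND2 and 302 to 464 with both siRNAs. These sums hide opposite moves. At limma adjusted p under 0.05, 7 of the 7 tested were higher after siMYCN. After siHAND2 3 were higher and 2 lower, and so were 3 and 2 in the combined knockdown (5 and 2 rescaled). PHOX2A (15.4 to 124 CPM over all samples) was among those lower in the combined knockdown. Shares of all genes called are given below. Of 9 mesenchymal and stromal markers, 5 had a mean of at least 1 CPM, PRRX1 was listed at 0 in all samples, and the sum was 54.9 to 63.0 CPM in siCtrl, 57.6 to 65.2 after siMYCN, 34.2 to 41.2 after siHAND2 and 26.1 to 36.3 in the combined knockdown. Sums over 7 immune and endothelial markers (0.469 to 1.79 CPM, with CD3E listed at 0 in all samples) and over 4 Schwann cell markers (1.45 to 3.21 CPM) were low. How far these marker shifts bear on the chaperonin genes was not tested.

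One feature of the libraries touches every value below. The listed genes held 65.1% ± 0.736 of the reads in siCtrl, 62.4% ± 0.979 after siMYCN and 59.4% ± 2.39 after siHAND2, but 58.4%, 51.4% and 44.3% in combined replicates 1, 2 and 3. The deposited CPM of the listed genes therefore summed to less in the combined knockdown, and to least in its replicate 3. The median log2 change against siCtrl over the 12680 genes tested was 0.006 for siMYCN, -0.14 for siHAND2 and -0.28 for the combined knockdown. After each library was rescaled by the median of its gene ratios (rescaled CPM), these medians were 0.01, 0.01 and 0.04. Values are on deposited CPM unless rescaled CPM is named. In these bulk libraries, fewer cells of a type and less RNA per cell cannot be told apart. Library depth was 31.6 to 64.2 M reads.

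All 10 members were among the abundant genes of siCtrl cells. Ranked by CPM against the 12680 genes tested, which had a mean of at least 1 CPM, they stood between percentile 95.2 (HSPE1) and 99.7 (HSPD1). Per kilobase of the annotated transcript, HSPD1 came first with 438 ± 5.57 CPM per kb and CCT3 next with 416 ± 25.8, a difference smaller than the SD of CCT3. CCT7 (305 ± 7.27) and HSPE1 (302 ± 12.6) followed and were as close to each other. Next came TCP1 (258 ± 6.87) and CCT4 (256 ± 15.7), again within their SDs, and then CCT2 (234 ± 8.26). CCT8 (156 ± 3.39), CCT5 (151 ± 5.47) and CCT6A (148 ± 2.55) formed the lowest level, with neighbours differing by less than the larger SD. In combined knockdown cells the order changed at the top: CCT3 led with 247 ± 55.3 CPM per kb, and HSPD1, at 130 ± 26.6, lay between CCT4 (133 ± 26.3) and TCP1 (127 ± 26.5).

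**Figure D1:**
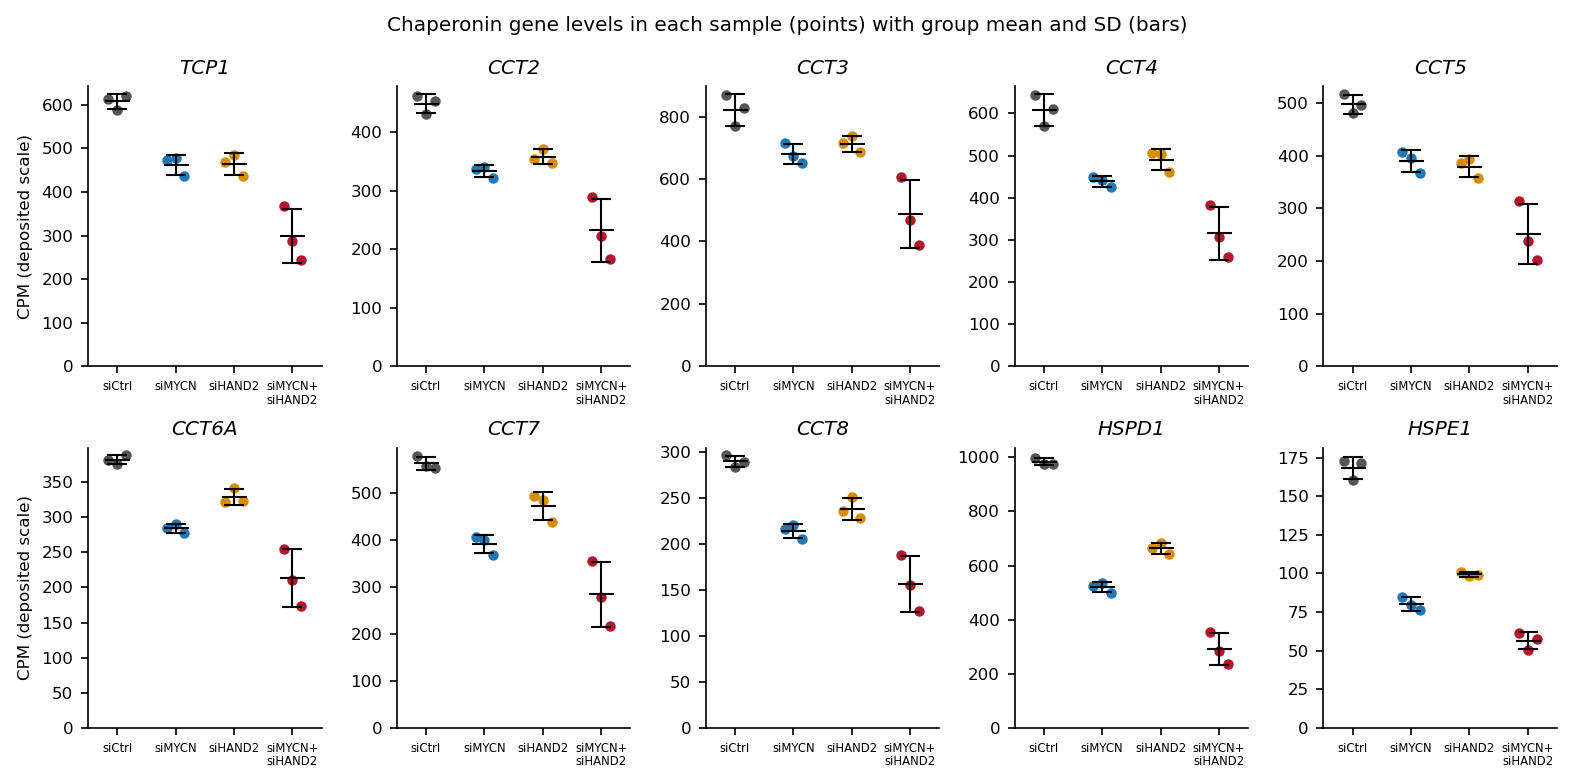
Deposited CPM of the 10 chaperonin genes in each of the 12 samples (points), with group mean and SD (bars, n = 3), on axes that start at 0. In each gene the siCtrl samples are the highest of the 4 groups and no sample of a knockdown group reaches them; the combined group is the lowest in each gene, and the most spread in each but HSPE1.

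HSPD1, the HSP60 subunit, was measured at 998, 976 and 976 CPM in siCtrl replicates 1 to 3, at 525, 537 and 498 after siMYCN, at 666, 684 and 643 after siHAND2, and at 355, 283 and 236 with both siRNAs. The 4 groups did not overlap, with siCtrl highest, then siHAND2, then siMYCN, and the combined knockdown lowest. Its log2 change against siCtrl, on the log2(CPM + 1) scale used throughout, was -0.92 (SE 0.126) for siMYCN, -0.57 (SE 0.126) for siHAND2 and -1.77 (SE 0.126) for the combined knockdown. The adjusted p-values (limma, Benjamini-Hochberg over all 12680 genes) were 3.81e-06, 0.00077 and 5.34e-12. On rescaled CPM the changes were -0.91, -0.41 and -1.41, and each again passed the threshold of adjusted p under 0.05.

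HSPE1, the HSP10 lid, stood at 173, 160 and 172 CPM in siCtrl, at 84.8, 79.5 and 76.4 after siMYCN, at 101, 98.1 and 98.7 after siHAND2, and at 61.5, 50.6 and 57.3 in the combined knockdown. Here too the 4 groups did not overlap and kept the same order as for HSPD1. The log2 change was -1.06 (SE 0.109, limma adjusted p = 5.38e-08) for siMYCN, the largest of any member in that comparison. It was -0.75 for siHAND2 and -1.56 for the combined knockdown, with the same SE and limma adjusted p-values of 4.32e-06 and 3.88e-12. On rescaled CPM it was -1.05, -0.59 and -1.21, and the combined samples (62.1, 58.4 and 78.5 rescaled CPM) then overlapped those of siMYCN (76.8, 72.9 and 71.0).

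The rows of HSPD1 and HSPE1 overlap by 279 bases on opposite strands, and use of strand in the counting is not given in the sources used here, so reads in that stretch cannot be assigned with certainty. The read-through gene HSPE1-MOB4, which contains HSPE1 on the same strand, was listed at 0.105 to 1.16 CPM.

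Each of the 8 CCT subunits had a smaller log2 change than HSPD1 and HSPE1 in all 3 comparisons with siCtrl: -0.27 to -0.52 for siMYCN, -0.21 to -0.39 for siHAND2 and -0.77 to -1.04 for the combined knockdown. TCP1, the subunit that gave the complex its older name, was measured at 615, 589 and 620 CPM in siCtrl, 472, 477 and 436 after siMYCN, 470, 485 and 437 after siHAND2, and 368, 287 and 245 with both siRNAs. Both single knockdowns lay below siCtrl at about the same level, and the combined samples lay below both. The log2 changes were -0.40 for siMYCN, -0.39 for siHAND2 and -1.04 for the combined knockdown (SE 0.127 each), with limma adjusted p-values of 0.0179, 0.0156 and 9.18e-08. On rescaled CPM they were -0.39, -0.23 and -0.68, all past the threshold. TCP1 overlaps ACAT2 by 616 bases on the other strand. ACAT2, a cholesterol pathway thiolase, was listed at 62.3 to 169 CPM, so part of either value may belong to the other gene.

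CCT3, the subunit with the highest CPM, stood at 871, 769 and 827 CPM in siCtrl, 716, 674 and 651 after siMYCN, 714, 737 and 686 after siHAND2, and 605, 470 and 389 with both siRNAs. The single knockdowns overlapped each other and lay closer to siCtrl than for any other subunit after siMYCN. The log2 change of -0.27 (SE 0.132) for siMYCN missed the threshold (limma adjusted p = 0.117), and that of -0.21 (SE 0.132) for siHAND2 did too (limma adjusted p = 0.215). The combined knockdown gave -0.77 (SE 0.132, limma adjusted p = 1.27e-05). On rescaled CPM CCT3 passed after siMYCN (-0.26, limma adjusted p = 0.00606) and in the combined knockdown (-0.41), and its siHAND2 change was -0.05, with samples overlapping siCtrl.

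CCT7 showed the largest CCT change after siMYCN. Its samples read 579, 557 and 554 CPM in siCtrl, 406, 400 and 369 after siMYCN, 493, 484 and 438 after siHAND2, and 356, 279 and 218 with both siRNAs. All knockdown samples lay below siCtrl, those of siMYCN below those of siHAND2. The log2 change was -0.52 for siMYCN, -0.26 for siHAND2 and -1.01 for the combined knockdown (SE 0.136 each). The limma adjusted p-values were 0.004, 0.128 and 3.61e-07, so siHAND2 did not pass. CCT5, in contrast, read 516, 480 and 495 CPM in siCtrl, 406, 396 and 367 after siMYCN, 387, 393 and 357 after siHAND2, and 313, 238 and 202 with both siRNAs, so its single knockdowns overlapped. Its log2 changes were -0.35 (limma adjusted p = 0.0387), -0.39 (limma adjusted p = 0.0178) and -1.01 (limma adjusted p = 2.17e-07). On rescaled CPM CCT7 changed by -0.51, -0.10 and -0.65 and CCT5 by -0.34, -0.23 and -0.65, and again only the siHAND2 change of CCT7 did not pass.

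The remaining subunits were CCT2, CCT4, CCT6A and CCT8. CCT2 ran from 431 to 462 CPM in siCtrl and from 184 to 289 with both siRNAs, CCT4 from 569 to 644 and from 259 to 383, CCT6A from 375 to 389 and from 174 to 256, and CCT8 from 284 to 296 and from 127 to 188. In each, all siCtrl samples were above all others. After siMYCN their log2 changes ran from -0.42 (CCT6A) to -0.47 (CCT4), all past the threshold. After siHAND2 they ran from -0.21 (CCT6A) to -0.33 (CCT2), and CCT2 alone of these passed (limma adjusted p = 0.0453). CCT4 just missed it (limma adjusted p = 0.051). In the combined knockdown they ran from -0.85 (CCT6A) to -0.97 (CCT2), all past the threshold. On rescaled CPM the ranges were -0.41 (CCT6A) to -0.46 (CCT4), -0.06 (CCT6A) to -0.17 (CCT2), and -0.50 (CCT6A) to -0.61 (CCT2), with the same calls. CCT6A has processed and duplicated relatives, and the deposited table lists CCT6P1 at 3.02 to 6.00 CPM, CCT6P3 at 2.38 to 4.07 and the testis paralog CCT6B at 0.206 to 0.561, against 174 to 389 for CCT6A itself.

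**Figure D2:**
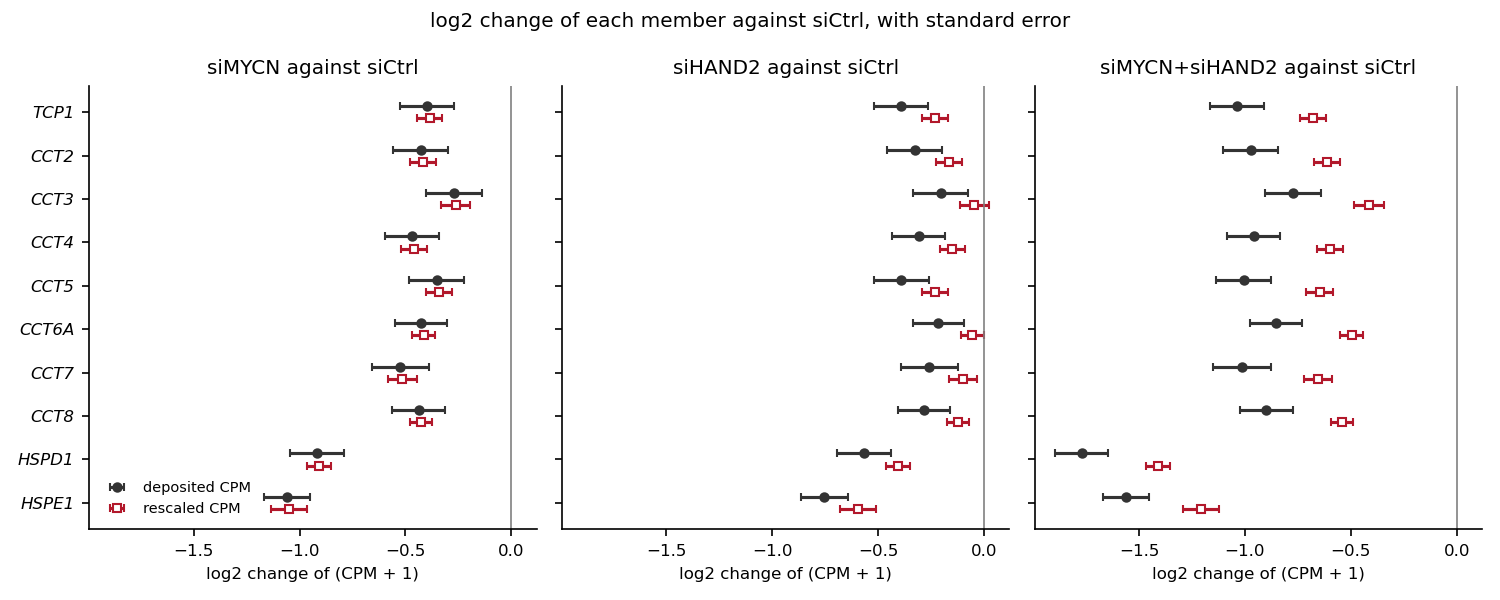
log2 change of each member against siCtrl with its standard error, for the 3 knockdowns, on deposited CPM (filled circles) and rescaled CPM (open squares). Every change is below 0 on both scales; HSPD1 and HSPE1 lie farthest to the left, and rescaling moves the siHAND2 and combined changes toward 0 but hardly moves those of siMYCN.

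Counted over the 10 members, 9 (all but CCT3) were called lower after siMYCN, where 16.3% of all genes tested were called lower. On rescaled CPM it was 10 of 10 against 22.5%. The count of 9 fell to 6 without siCtrl replicate 1 or siMYCN replicate 3, in both cases with TCP1, CCT2 and CCT5 the calls lost. After siHAND2 the count was 5 (HSPD1, HSPE1, TCP1, CCT5 and CCT2), where 30.4% of all genes were called lower. On rescaled CPM the count was again 5, against 24.9%. The siHAND2 count on deposited CPM moved with the libraries fitted: it was 2 without siCtrl replicate 1 or siHAND2 replicate 3, 3 without siCtrl replicate 3, 9 without combined replicate 1 or 3, 2 with no filter on low genes, and 10 when siHAND2 and siCtrl were fitted alone. HSPD1 and HSPE1 passed in each of these. The main fit uses 1 spread estimate for all 4 groups. The SE of a siHAND2 or siMYCN change therefore also includes the spread of the combined samples, the most spread group for every member but HSPE1. A missed threshold there is not a measure of the spread of the 2 compared groups alone. The background moved too: all genes called in either direction after siHAND2 were 5411 with all libraries and ran from 4303 to 6941 without 1 library. In the combined knockdown the member count was 10 of 10 against 50.1% of all genes, and on rescaled CPM 10 of 10 against 33.0%. No member was called higher in any of these. The 3 comparisons share the siCtrl samples, so they are not independent of each other.

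By sample, all 10 members lay below every siCtrl sample in each of the 3 knockdowns on deposited CPM. That was so for 29.6% of all genes after siMYCN, 45.0% after siHAND2 and 48.3% in the combined knockdown. On rescaled CPM it held for 10 members after siMYCN (28.9% of all genes), 8 after siHAND2 (29.9%) and 10 in the combined knockdown (32.9%). The 2 members that then overlapped siCtrl after siHAND2 were CCT3 and CCT6A.

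The comparisons among the knockdowns ask whether both siRNAs together left less chaperonin RNA than 1 alone. MYCN RNA was itself lower in the combined knockdown than after siMYCN (-0.51, limma adjusted p = 0.0007). On rescaled CPM that difference was -0.16 (limma adjusted p = 0.0535). The comparison with siMYCN may therefore also differ in MYCN level. HAND2 RNA was higher in the combined knockdown than after siHAND2 on rescaled CPM (0.43, limma adjusted p = 0.00157). On deposited CPM that difference was 0.23 (limma adjusted p = 0.129). The comparison with siHAND2 may therefore also differ in HAND2 level. Against siHAND2, the combined knockdown had all 10 members lower, with a background of 31.5% of genes, and all 10 on rescaled CPM with 23.6%. HSPD1 moved most, by -1.21 (SE 0.126) on deposited and -1.01 (SE 0.0576) on rescaled CPM. Against siMYCN, all 10 were called lower on deposited CPM, where 50.0% of all genes were. On rescaled CPM only 4 were (HSPD1 -0.50, CCT5 -0.30, TCP1 -0.29 and CCT2 -0.20), against 26.6% of genes, and 8 were without combined replicate 1. The other 6 ran from -0.08 (CCT6A, limma adjusted p = 0.214) to -0.16 (HSPE1, limma adjusted p = 0.132).

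siMYCN and siHAND2 differed directly in HSPD1 (-0.35, limma adjusted p = 0.0319) and HSPE1 (-0.31, limma adjusted p = 0.0316), both lower after siMYCN, where 8.98% of all genes were called lower. Both calls were lost without any 1 of the siMYCN or siHAND2 libraries, and 1 without siCtrl replicate 1, whereas 4 members passed without combined replicate 1 or 3. No CCT subunit passed on deposited CPM. On rescaled CPM 9 of 10 members were lower after siMYCN, against 22.2% of genes, with CCT5 the exception (-0.11, limma adjusted p = 0.172). TCP1 was at the threshold there (-0.16, limma adjusted p = 0.0499).

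The interaction contrast asks whether the combined change differed from the sum of the single changes on the log2 scale. No member passed it on deposited CPM by limma, none had an unadjusted p under 0.05, and 4.01% of all genes were called in either direction. Without combined replicate 1, 7 members were called, in a fit that called 4443 of the 12680 genes tested against 508 with all libraries. Without each other library no member was called. On rescaled CPM, where 6.14% of genes were called, 1 member was: HSPE1 lay above the sum by 0.44 (SE 0.122, limma adjusted p = 0.0489), so that its combined fall was smaller than the sum of its single falls. That call was kept without any 1 of the combined libraries and lost without any 1 library of the other groups. The rescaled values of the CCT subunits ran from -0.11 (CCT3) to 0.01 (CCT8), with adjusted p-values from 0.531 to 0.962 (limma).

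Ratios within a sample do not depend on the scaling and compare the 2 chaperonins directly. The summed CPM of the 8 CCT genes was 4219 ± 155 in siCtrl, 3194 ± 123 after siMYCN (75.7% of siCtrl), 3442 ± 150 after siHAND2 (81.6%) and 2241 ± 484 in the combined knockdown (53.1%). On rescaled CPM the percentages were 76.2, 91.1 and 67.3. HSPD1 CPM equalled 22.9%, 24.1% and 23.0% of that sum in the siCtrl samples, 16.0%, 16.6% and 16.3% after siMYCN, 19.1%, 19.1% and 19.6% after siHAND2, and 12.9%, 13.1% and 13.1% in the combined knockdown. The groups did not overlap, and the combined samples, so spread in CPM, were nearly equal in this ratio. No test was made on this ratio, since the sum is taken over the members.

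The ratio of HSPD1 to HSPE1 CPM was 5.77, 6.10 and 5.69 in siCtrl, 6.20, 6.75 and 6.52 after siMYCN, 6.59, 6.97 and 6.51 after siHAND2, and 5.77, 5.61 and 4.12 in the combined knockdown. Both single knockdowns lay above siCtrl, combined replicate 1 lay within the siCtrl range, and combined replicates 2 and 3 lay below it, replicate 3 by far. On the log2 scale the difference from siCtrl was 0.15 for siMYCN, 0.19 for siHAND2 and -0.20 for the combined knockdown. Without combined replicate 3 the last of these was -0.0406, and without combined replicate 1 it was -0.28. Two-sided exact permutation tests without pairing gave p = 0.1, 0.1 and 0.3. The combined knockdown differed from siMYCN by -0.34 and from siHAND2 by -0.39 (exact p = 0.1 for both), or by -0.19 and -0.23 without combined replicate 3, and siMYCN from siHAND2 by -0.04 (exact p = 0.5). With 3 samples against 3 the smallest possible p is 0.1, so no comparison could pass, and adjusted over the 6 comparisons the values were 0.15 to 0.5 (Benjamini-Hochberg on exact p).

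**Figure D3:**
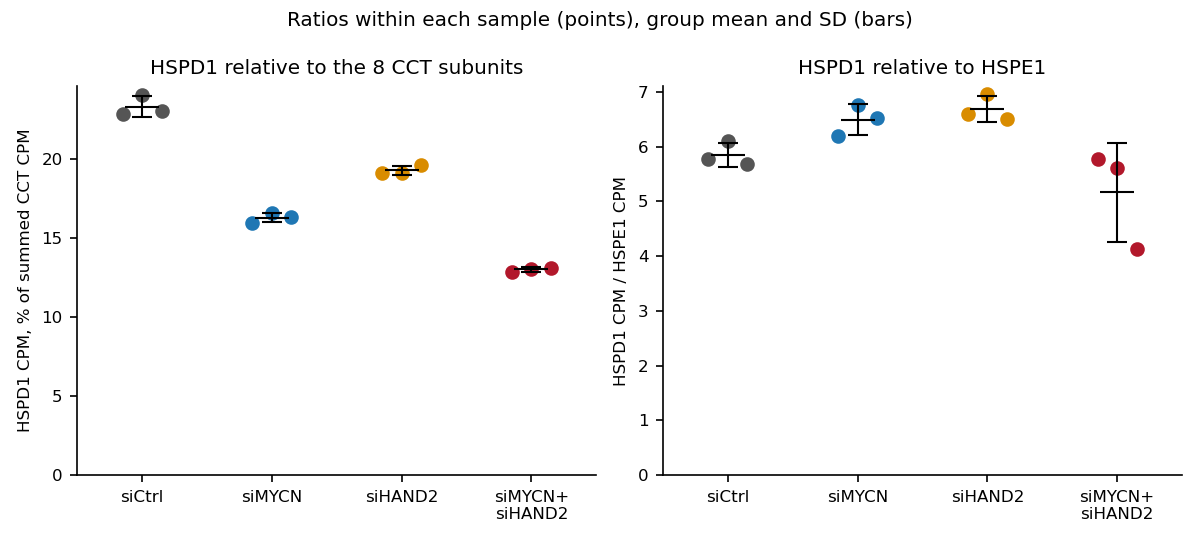
Left, HSPD1 CPM as a percentage of the summed CPM of the 8 CCT genes; right, HSPD1 CPM divided by HSPE1 CPM; points are samples and bars are group mean and SD (n = 3). On the left the groups are separate, from 23.3% ± 0.659 in siCtrl to 13.0% ± 0.143 in the combined knockdown; on the right combined replicate 3, at 4.12, stands apart.

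The makeup of the CCT RNA pool was compared as shares of the summed CPM. CCT3 made up 19.5% ± 0.495 of it in siCtrl and lay above it in every knockdown, at 21.3% after siMYCN, 20.7% after siHAND2 and 21.8% in the combined knockdown. CCT2 lay below its siCtrl share of 10.6% in all 3, at 10.4%, 10.4% and 10.3%. The other 6 did not lie on 1 side of siCtrl throughout. TCP1 (14.4% in siCtrl) overlapped siCtrl after siMYCN but lay below it after siHAND2 (13.5%) and the combined knockdown (13.4%). CCT5 (11.8% in siCtrl) lay above siCtrl after siMYCN (12.2%) and below it after siHAND2 (11.0%) and the combined knockdown (11.2%). CCT7 (13.4% in siCtrl) lay below after siMYCN (12.3%) and the combined knockdown (12.6%) and overlapped siCtrl after siHAND2. CCT4 (14.4% in siCtrl) and CCT8 (6.87%) lay below it after siMYCN (13.7% and 6.69%) and overlapped it in the other two knockdowns. CCT6A (9.06% in siCtrl) lay above it in the combined knockdown (9.55%) and overlapped it after each single siRNA. These shares are descriptions without a test, and since they sum to the whole, a higher share of CCT3 lowers the others.

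**Figure D4:**
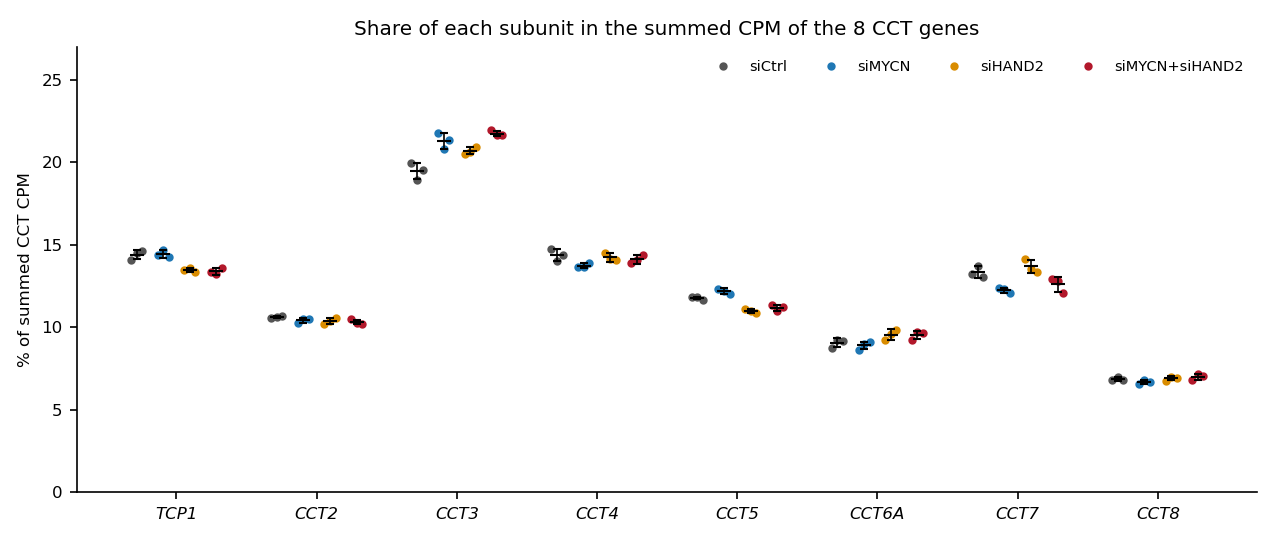
Share of each subunit in the summed CPM of the 8 CCT genes, in percent; points are samples coloured by group, bars are group mean and SD (n = 3). CCT3 is the largest share and is higher in each knockdown than in siCtrl; no subunit's mean share moves by more than 2.27 percentage points.

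Across the 12 samples on rescaled CPM, the members were alike. The highest Pearson correlation of log2 values between members was 0.994 (TCP1 and CCT5) and the lowest 0.837 (HSPE1 and CCT3). These points share libraries and groups, so the values are descriptions. Of 10182 genes with a mean of at least 5 CPM, the non-members most like the mean profile of the CCT subunits were IARS (r = 0.991), an isoleucyl-tRNA synthetase, PWP2 (0.990), GTPBP4 (0.989), WDR46 (0.989) and RITA1 (0.988). Most like HSPD1 and HSPE1 were NME1 (r = 0.995), a nucleoside diphosphate kinase, PUM3 (0.993), EXOSC7 (0.992), RRP1 (0.991) and PNO1 (0.991). NME1 stood at 484 CPM in siCtrl, 275 after siMYCN, 324 after siHAND2 and 188 with both siRNAs.

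The other genes of protein folding were read from lists chosen by function. As background for their counts, the share of all genes called higher was 17.4% after siMYCN, 12.3% after siHAND2 and 17.4% in the combined knockdown, and on rescaled CPM 25.4%, 25.9% and 37.7%. The shares called lower were those given for the members. Of 16 mitochondrial chaperones and proteases, 11 fell after siMYCN, 11 after siHAND2 and 15 in the combined knockdown, with median log2 changes of -0.36, -0.34 and -0.80. On rescaled CPM 12, 10 and 12 fell. The siMYCN count of 11 was 6 without siCtrl replicate 1 and 7 without siCtrl replicate 3 or siMYCN replicate 2 or 3. The siHAND2 count of 11 was 6 without siCtrl replicate 1 and 7 without siCtrl replicate 3 or siHAND2 replicate 1, and its rescaled count of 10 was 6 without siCtrl replicate 1 or siHAND2 replicate 3. HSPA9, the mitochondrial HSP70 that hands proteins to HSP60, fell from 366 ± 11.1 CPM in siCtrl to 228 ± 4.72, 256 ± 11.1 and 138 ± 35.3, with log2 changes of -0.68, -0.51 and -1.43 (-0.67, -0.35 and -1.07 on rescaled CPM). TRAP1, the mitochondrial HSP90, changed by -1.29 and GRPEL1, the nucleotide exchange factor of HSPA9, by -1.28 in the combined knockdown, and by -0.94 each on rescaled CPM. SPG7, a subunit of an inner membrane protease, rose there by 0.34 (0.69 rescaled) and was the only one of the 16 to rise on either scale.

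Of 22 genes of the cytosolic HSP70 and HSP90 system, 11 fell after siMYCN, 11 after siHAND2 and 21 in the combined knockdown (medians -0.33, -0.34 and -0.96), and on rescaled CPM 16, 11 and 19 fell and 1 (ST13, 0.19) rose after siHAND2. HSPH1, an HSP110 exchange factor, changed by -1.51 in the combined knockdown, and the HSP90 co-chaperones FKBP5 and FKBP4 by -1.47 each. HSPA8, the constitutive HSP70, changed by -0.93, and HSP90AB1, the constitutive HSP90, by -1.25. On rescaled CPM these values were -1.15, -1.12, -1.11, -0.57 and -0.89, in the same order. After siMYCN alone HSPA8 did not pass on deposited CPM (-0.25, limma adjusted p = 0.167), though it did when rescaled (-0.25, limma adjusted p = 0.0245). The siMYCN count of 11 was 4 without siCtrl replicate 1 or siMYCN replicate 3 and 6 without siCtrl replicate 2 or siMYCN replicate 1 or 2. The siHAND2 count of 11 was 17 without combined replicate 3. The rise of ST13 was lost without siCtrl replicate 2 or siHAND2 replicate 2 or 3.

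Heat shock factors and inducible heat shock genes gave 6 testable genes of 10. After siMYCN 1 fell (HSPA1B, -0.66), after siHAND2 4 and in the combined knockdown 6 (medians -0.15, -0.33 and -0.62), and on rescaled CPM 1, 3 and 4 fell and 1 (HSPA1A, 0.38) rose after siHAND2. The siHAND2 count of 4 was 2 without siCtrl replicate 1 or 3 or siHAND2 replicate 1 or 3, and the rescaled count of 1 that rose was 0 without any 1 library other than siHAND2 replicate 3 or combined replicate 1 or 2. HSF1, the main heat shock factor, changed by -0.15 after siMYCN (limma adjusted p = 0.42), -0.28 after siHAND2 (limma adjusted p = 0.0902) and -0.72 in the combined knockdown, where it passed, as it did on rescaled CPM (-0.37). HSPB1, a small heat shock protein, changed there by -1.14 and HSPA1B, an inducible HSP70, by -1.07 (-0.80 and -0.71 rescaled). HSPA1B and HSPA1A are nearly identical, so the division of reads between them is uncertain. HSPA6, a strictly inducible HSP70 below the filter on low genes, stood at 0.437 ± 0.144 CPM in siCtrl, 0.338 ± 0.0437 after siMYCN, 0.871 ± 0.248 after siHAND2 and 2.24 ± 0.281 with both siRNAs, with no test.

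Of 15 endoplasmic reticulum chaperones, 1 fell after siMYCN (PDIA6, -0.36) and the median was 0.05, beside 0.006 for all genes. After siHAND2 6 fell (median -0.25) and in the combined knockdown 13 (median -0.75). On rescaled CPM 3, 6 and 10 fell, and after siHAND2 DNAJB9 (0.31), CALR (0.22) and HYOU1 (0.21) rose. The fall of PDIA6 after siMYCN was lost without any 1 of the siCtrl or siMYCN libraries, siHAND2 replicate 2 or combined replicate 2, and the count was 2 without combined replicate 1 or 3. The siHAND2 count of 6 was 3 without siHAND2 replicate 3, and on rescaled CPM also without siCtrl replicate 3. The count of 3 that rose was 1 without siHAND2 replicate 1 or 2. In the combined knockdown the disulfide isomerases PDIA4 and PDIA6 changed by -1.56 and -1.27 and HSP90B1, the HSP90 of that compartment, by -1.34, while DNAJB9, an unfolded protein response gene, rose by 0.33. On rescaled CPM these were -1.21, -0.91, -0.98 and 0.67. The difference between this list and the mitochondrial one was not tested.

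The genes that work with CCT were read next. Of 10 partner genes (prefoldin subunits, which deliver substrates to CCT, phosducin-like co-factors and PDCD5), 2 fell after siMYCN, 4 after siHAND2 and 4 in the combined knockdown, with medians of -0.13, -0.23 and -0.17. Those that moved most in the combined knockdown were PDCD5 (-1.11), PFDN6 (-1.08) and PDCL3 (-0.83), or -0.76, -0.75 and -0.50 rescaled. On rescaled CPM 4 fell and 4 rose there, with a median of 0.18, so the sign of the list median depends on the scale. After siMYCN 3 fell and 1 (PDCL, 0.21) rose on that scale, and after siHAND2 2 fell. On deposited CPM the siMYCN count of 2 was 0 without siCtrl replicate 3, 1 without siCtrl replicate 1 or 2 or siMYCN replicate 2 or 3, and 4 without combined replicate 3. The siHAND2 count of 4 was 1 without siCtrl replicate 3 or siHAND2 replicate 1 and 2 without siHAND2 replicate 3. The rescaled siHAND2 count of 2 was 1 without siCtrl replicate 1 or 3, siHAND2 replicate 1 or any 1 of the siMYCN libraries.

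Among 5 tubulin folding cofactors, 1 rose after siMYCN (TBCB, 0.37), 2 fell after siHAND2 (TBCA and TBCE) and 3 fell in the combined knockdown (TBCD -0.70, TBCA -0.62 and TBCE -0.59), and on rescaled CPM these 3 fell (-0.35, -0.27 and -0.25) and 2 rose. On that scale 2 rose and 1 fell after siMYCN, and 1 rose and 2 fell after siHAND2. The rise of TBCB after siMYCN was lost on deposited CPM without siCtrl replicate 1 or 2 or any 1 of the siMYCN libraries, and 2 cofactors rose without combined replicate 1 or 3. The siHAND2 count of 2 was 1 without siCtrl replicate 1 and 4 without combined replicate 1 or 3. The rescaled counts for this list also moved by 1 gene with single libraries left out. Of the chaperonin-like genes, 3 of 5 were testable. MKKS changed by -0.52 in the combined knockdown, a call that was lost on rescaled CPM, and BBS12 rose by 0.63 (0.93 rescaled).

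The substrates of CCT went both ways. Of 15 genes for well-known substrates, 7 rose and none fell after siMYCN, 4 rose and 5 fell after siHAND2, and 6 rose and 6 fell with both siRNAs. The median log2 changes were 0.30, 0.08 and -0.08. On rescaled CPM the counts were 8 and 2, 8 and 5, and 8 and 4, with medians of 0.31, 0.22 and 0.28. After siMYCN 2 fell on deposited CPM without combined replicate 1 or 3, and on rescaled CPM 1 fell without siCtrl replicate 1 or 3 or siMYCN replicate 2 or 3. The risers were led by neuronal tubulins: TUBA1A went from 844 ± 70.7 CPM in siCtrl to 2990 ± 738 in the combined knockdown (log2 change 1.80), TUBB3 from 134 ± 6.13 to 457 ± 106 (1.74) and TUBB2B from 229 ± 12.1 to 683 ± 181 (1.54). Those that fell were led by CDC20 (-1.70), the mitotic activator of the anaphase-promoting complex, TUBA1B (-1.42), a widely expressed alpha-tubulin, and TUBG1 (-1.24), the gamma-tubulin of centrosomes. These 6 kept their direction and their call on rescaled CPM. Tubulin genes are close in sequence, so reads may be divided between them.

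**Figure D5:**
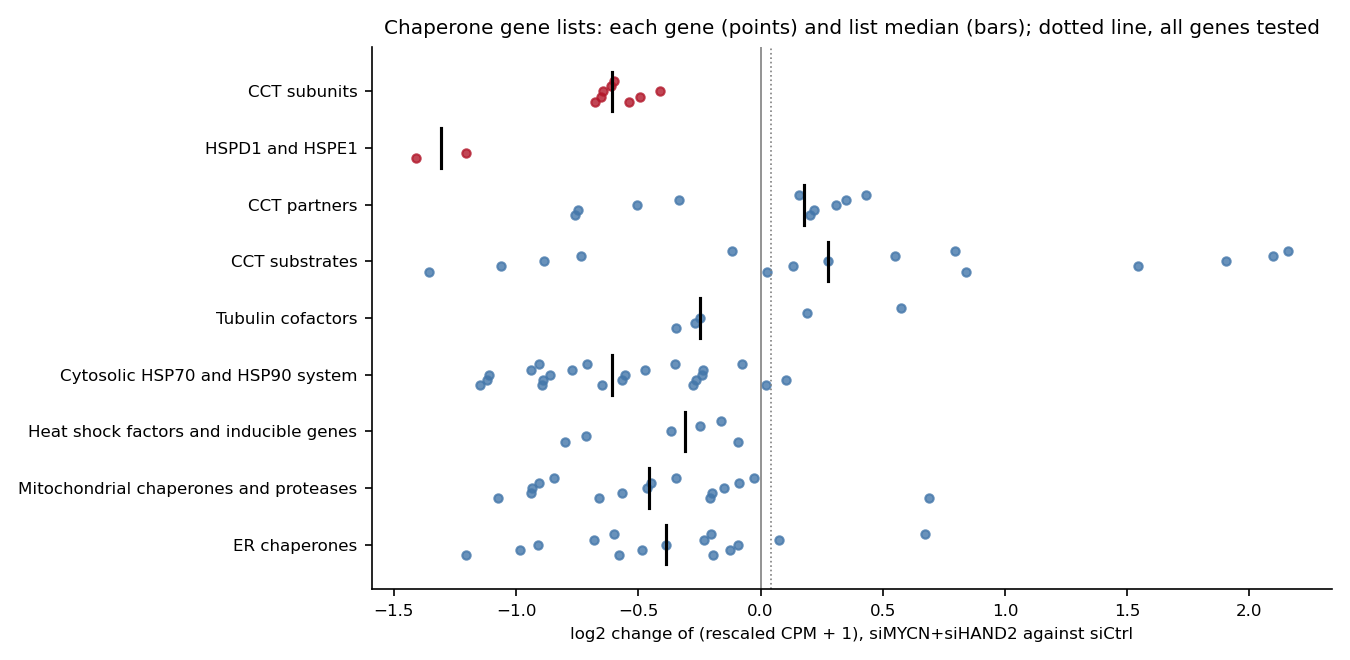
log2 change of rescaled CPM in the combined knockdown against siCtrl for the CCT subunits, for HSPD1 and HSPE1, and for 7 lists of related genes; points are genes, bars are list medians, and the dotted line is the median of all genes tested (0.04). The members (red) and the HSP70, HSP90, mitochondrial and endoplasmic reticulum lists lie mostly left of 0, whereas CCT partners and substrates spread to both sides.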

How the data were processed

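Total RNA of 12 IMR32 samples was sequenced. The authors deposited 1 table of CPM values for 27514 genes in hg19 positions, with a constant of 0.0001 added. Alignment with STAR 2.5.1 and use of Partek are named per the submitters' processing notes; the counting rule, annotation and strand setting are not given in the sources used here. Samples were grouped by their titles. Divided by the worth of 1 read, 90.3 to 91.8% of values under 20 reads were whole within 0.1 read, so no count test was run. 3 reads corresponded to 0.0468 to 0.0950 CPM, for counting error only.

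Values were analysed as log2(CPM + 1) for 12680 genes with a mean of at least 1 CPM, with limma 3.58.1 (lmFit, eBayes with trend) in R 4.3.3: 1 fit of the 4 groups with 8 residual degrees of freedom, 7 contrasts, Benjamini-Hochberg over all genes, and adjusted p under 0.05 as a call. Adding 1 understates changes of low genes. Rescaling divided each library by its median ratio over genes of at least 5 CPM. Tested on simulated data for siMYCN against siCtrl (12680 genes), the fit recovered 84 of 100 genes changed 1.5-fold and 99 of 100 changed 2-fold, with 11 false calls. The simulated libraries used siCtrl means, 1 spread for all groups, no siHAND2 effect and no fall in the share of reads in listed genes. These figures therefore do not measure performance on the real libraries. Ratios used exact permutation tests in SciPy 1.17.1. Transcript lengths came from GENCODE on GRCh37 and promoter windows from RefSeq (9 of 10 members matched).

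The members, the gene lists and the rule for named genes (members, targets, and up to 3 genes in each direction with the largest combined change per list, with HSPA9, HSPA8, HSP90AB1, HSF1 and TUBB3, genes overlapping or named like a member, and the 5 most alike) were chosen with earlier results of these data known. Marker genes, BBS12, ST13, HSPA1A, HSPA6, CALR, HYOU1, PDCL and TBCB were named after their values were seen. 1 neuroblastoma marker is not reported here, and its list is given without it. Alternatives were the scaling, the pseudocount, the filter, the trend, a replicate block, fitting only the groups compared and leaving out each sample. Replicate numbers come from the titles. Deviations of same-numbered samples correlated in every pair for siMYCN with siCtrl (0.15 to 0.44) and with siHAND2 (0.14 to 0.33). These 2 comparisons therefore count as paired. The SEs and p-values given for them leave the pairing out, except where a block or same-number differences are named. The block left their member counts as they were, at 9 and 2.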

Additional observations from a re-analysis of the deposited data

Results flagged for a closer look

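One result met the rules for a closer look: the effect of siHAND2 on HSPE1 differed with and without siMYCN, by the interaction test on rescaled CPM. The interaction was 0.437 on the log2 scale (SE 0.122, limma adjusted p = 0.0489). On deposited CPM it was 0.25 (limma adjusted p = 0.327), and with the rescaling and 1 library left out the adjusted p (limma) ran from 0.0161 to 0.119. Combined replicate 3 had the highest rescaled HSPE1 value of its group (78.5 against 62.1 and 58.4) and the lowest share of reads in listed genes (44.3% against 58.4% and 51.4%). Without it the value was 0.31 (SE 0.0779, limma adjusted p = 0.0376). The part of that library in the result beyond this was not tested. Groups of 3 were too small for the search for single samples that stand apart.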

How the results depend on the processing

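No member called in any comparison changed direction under any alternative. Of 1460 member values over the planned settings, 1329 kept direction and side of the threshold, 57 lost the call, 63 gained one and 11, none of them called, changed sign.

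Members called after siHAND2 (5) became 2 without the filter and 10 in a fit of the compared groups only; leaving out 1 library gave 2 to 9, and 4 to 7 with rescaling. For the combined knockdown against siMYCN the 10 calls became 4 with rescaling, 6 with rescaling and the replicate block, and 3, 4, 5 or 8 with rescaling and 1 library left out, an alternative chosen after seeing the data. For siMYCN against siHAND2 the 2 calls became 9 with rescaling, 7 with rescaling to the summed listed genes, 1 without the filter, 9 with rescaling and block, and 6 with only the compared groups; without 1 library they were 0 to 4, or 7, 8 or 9 with rescaling. The interaction count of 0 became 1 with either rescaling and with rescaling and block, and 0 to 7 without 1 library (7 without combined replicate 1; 0 or 1 with rescaling). The siMYCN count of 9 ran from 6 to 10 without 1 library. The cause of these moves, and the part in them of the spread estimate shared by all 4 groups, was not tested.

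All genes called for siMYCN (4273) became 6480 with rescaling and block and 6963 with only the compared groups; for siMYCN against siHAND2 (4443), 6730 with only the compared groups. Interaction calls (508) became 779 with rescaling, 795 by the summed listed genes, 154 without the filter, 1282 with the block, 1262 with rescaling and block, and 263 to 4443 without 1 library, the highest without combined replicate 1.

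The sign changes were CCT5 in siMYCN against siHAND2 (-0.11 with rescaling, also with block, -0.0307 by the summed listed genes, -0.00297 to 0.0816 without 1 library), TCP1 there (-0.0482 to 0.0347 without 1 library), and in the interaction CCT4 (0.00873) and CCT8 (0.0108) with rescaling, also with block.

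In the comparisons whose numbers do not pair the samples (lowest same-number correlations -0.07, -0.08, -0.02 and -0.19), the replicate block moved the siHAND2 count to 7 and no other member count. For the HSPD1 to HSPE1 ratio, the replicate block as same-number differences leaves each mean difference the same by arithmetic (0.15 for siMYCN), and its exact p was 0.25 for siMYCN. With 3 libraries a group the unpaired exact tests cannot go below 0.1, and those on same-number differences cannot go below 0.25. The 44.3% of reads in listed genes of combined replicate 3 limits every combined value on deposited CPM.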
